A study of Mus musculus with 15 samples.

Results

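Mitochondrial ribosomal protein genes, the nuclear genes with symbols in Mrpl and Mrps, were followed across motor neurons of mice with spinal muscular atrophy (SMA), their controls and 3 treatments. The members were all symbols made of Mrpl or Mrps, a number and at most 1 letter (a, b or c) with a mean of at least 1 TPM over the 15 libraries. TPM gives each transcript's share of a library's RNA, corrected for transcript length. Of 36144 symbols in the gene table, 78 had such a name, and all 78 passed the minimum and were among the 15425 genes tested. None lay near the minimum: the lowest mean was 22.9 deposited TPM (Mrps30), and no symbol of this form lay under 1 TPM.

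The mitochondrial ribosome translates the few proteins that mitochondrial DNA encodes, all of them subunits of the respiratory chain and ATP synthase. Its RNA comes from mitochondrial DNA, but every one of its proteins is made in the cytosol from nuclear genes and imported. Part of its proteins have counterparts in the bacterial ribosome, and part were added in mitochondria. Motor neurons, with long axons and a high demand for ATP, depend on this system, and inherited defects in it often affect the nervous system.

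The libraries came from lumbar (L1 to L3) motor neurons of mice at postnatal day 6, labelled with cholera toxin subunit B and isolated by laser-capture microdissection. There were 5 groups of 3 biological replicates, all on an FVB background with equal proportions of males and females. WT denotes Smn+/+;SMN2;SMNdelta7 littermates and SMA denotes Smn-/-;SMN2;SMNdelta7 mice, both given vehicle. The other groups were SMA mice given 5 mg/kg MW150 (an inhibitor of the kinase p38α), 2.2 mg/kg Pifithrin-α (an inhibitor of p53) or 3 mg/kg SMN-C3 (a modifier of SMN2 splicing), daily by intraperitoneal injection from postnatal day 0. All 5 groups, WT included, carry the human SMN2 and SMNΔ7 transgenes, so that the SMA mice lack only the mouse gene. The labels do not say how many animals or neurons made up a library.

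The libraries differed in a way that the groups do not explain. Mitochondrially encoded genes took 21.9% of TPM in WT 1, 20.4% in SMA+Pifithrin-alpha 3, 12.6% in SMA+Pifithrin-alpha 2 and 11.3% in SMA+SMN-C3 1, against 3.76% to 7.55% in the other 11. Because a rise in some TPM values lowers the rest of a library, values were scaled between libraries by median-of-ratios size factors (0.63 to 1.24) and are called scaled TPM. Smn1, the deleted gene, was at 11.1, 17.5 and 21.7 scaled TPM in WT and between 0 and 1.23 in the 12 SMA and treated libraries. The 10 motor neuron markers summed to 15089 to 15347 scaled TPM in WT, 8960 to 13578 in SMA, 10086 to 13335 with MW150, 12656 to 16784 with Pifithrin-α and 15030 to 19207 with SMN-C3. The 12 microglia markers summed to 86.0 to 106 in WT, 174 to 196 in SMA, 115 to 160 with MW150, 95.0 to 131 with Pifithrin-α and 104 to 143 with SMN-C3. Neither sum overlapped between SMA and WT. The 10 astrocyte markers summed to 1177 to 1919 in WT and 1504 to 2012 in SMA. The 10 oligodendrocyte markers summed to 749 to 2418 and 884 to 4088, and both of these sums overlapped. None of the markers of microglia, astrocytes, oligodendrocytes or vessels was at 0 in all libraries. In such bulk samples fewer cells of a type and less RNA per cell cannot be told apart.

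The sequence shown here lies in Mrpl20, the gene of a large-subunit protein with a bacterial counterpart (bL20m). It was chosen with earlier results of these data in view. Mrpl20 (ENSMUSG00000029066.12) spans chr4:155802878-155809975 on the plus strand of GRCm38, with the exons of the GENCODE M21 annotation. Its full-length transcript (ENSMUST00000030942.12) has 4 exons. Another transcript (ENSMUST00000185148.7) lacks the second of these, the coding exon at chr4:155803833-155803943. That exon is shown in capitals with 25 bases of the neighbouring exons on either side, followed by the same neighbours joined without it, where the capitals mark the bases after the junction.
Mrpl20 exon 2 with flanks: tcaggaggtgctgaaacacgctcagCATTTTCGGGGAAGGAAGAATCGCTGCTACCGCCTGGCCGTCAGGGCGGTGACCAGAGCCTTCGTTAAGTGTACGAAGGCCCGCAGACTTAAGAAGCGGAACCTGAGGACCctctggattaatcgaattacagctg
Mrpl20 junction without exon 2: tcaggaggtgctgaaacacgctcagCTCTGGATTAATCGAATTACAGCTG
Exon 2 holds 111 bases, which are 37 codons, and 29 codons precede it. Its loss keeps the reading frame and shortens the coding sequence from 149 to 112 codons. Of the 464 stretches of 31 bases in the transcript without exon 2, 29 occur in no other GENCODE M21 transcript and the rest are shared.

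The Mrpl20 transcript without exon 2 was nearly absent in WT and present in every SMA and treated library. It was listed at 0, 1.28 and 0 deposited TPM in WT, and at 24.1, 26.5 and 11.7 in SMA. With MW150 it was at 20.8, 6.25 and 12.3 TPM, and with Pifithrin-α at 18.1, 13.7 and 22.4. With SMN-C3 it was at 8.60, 5.28 and 8.82 TPM. All 12 libraries without mouse Smn lay above all 3 WT libraries, and the SMN-C3 libraries lay below all 3 SMA libraries.

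As a share of all Mrpl20 TPM, the transcript made up 5.24% ± 1.96 (SD, n = 3) in SMA. The share was 3.45% ± 1.86 with MW150, 4.92% ± 1.77 with Pifithrin-α and 1.78% ± 0.57 with SMN-C3 (SD, n = 3 each). In WT it was 0, 0.281 and 0%. The full-length transcript made up 98.3% ± 1.33 of the gene in WT and 91.9% ± 1.55 in SMA (SD, n = 3), and its own level did not pass the test in any comparison.

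**Figure D1:**
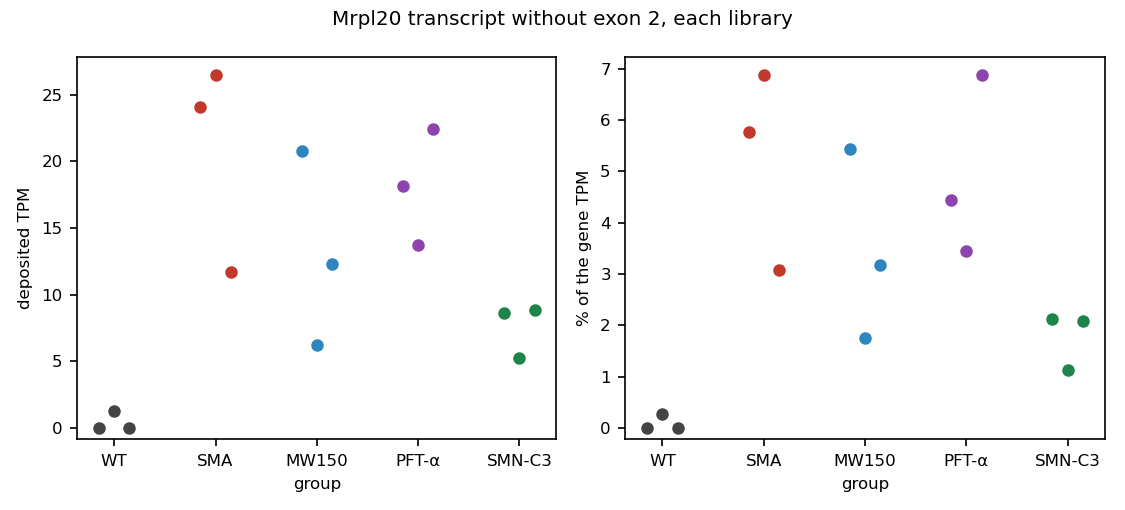
Deposited TPM (left axis) and percent of all Mrpl20 TPM (right axis) of the Mrpl20 transcript without exon 2, 1 point per library, by group (MW150, PFT-α and SMN-C3 are the treated SMA groups). The SMA libraries sit between 11.7 and 26.5 TPM, the SMN-C3 libraries between 5.28 and 8.82, and 2 of the 3 WT libraries at 0.

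One linear model over all 15 libraries (limma, on log2 of scaled TPM + 1, with Benjamini-Hochberg adjustment over 41719 transcripts) called the Mrpl20 transcript without exon 2 higher than WT in 3 groups. The log2 difference was 3.80 (SE 0.50, adjusted p 0.0031) for SMA, 3.05 (adjusted p 0.034) for SMA+MW150 and 3.92 (adjusted p 0.0042) for SMA+Pifithrin-alpha. These sizes depend on the pseudocount, since the WT values are at or near 0. SMA+SMN-C3 against WT gave 2.75 and was not called (adjusted p 0.080). Against SMA, the difference was -0.76 with MW150 (adjusted p 1.0), 0.12 with Pifithrin-α (0.96) and -1.05 with SMN-C3 (0.79), so no treatment was called to differ from SMA.

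It was the 1 transcript called among the 272 tested transcripts of the 78 genes. Over all transcripts, 0.175% were called higher and 0.0168% lower in SMA than in WT. Against WT the shares were 0.0551% and 0.0024% with MW150, 0.0527% and 0.00719% with Pifithrin-α, and 0.0288% and 0.0216% with SMN-C3. Against SMA 0% were called higher in each treated group, and 0.0024% with MW150, 0.00479% with Pifithrin-α and 0.00719% with SMN-C3 were called lower. The share of the gene was compared by exact two-sided permutation tests over libraries. Each of the 4 SMA and treated groups against WT, and SMN-C3 against SMA, gave an exact p of 0.1, below which 3 libraries a group cannot go (0.14 after adjustment over 7 comparisons). MW150 against SMA gave an exact p of 0.3 and Pifithrin-α against SMA an exact p of 0.9. In fits of only the groups compared the calls against WT were lost (adjusted p 0.13 for SMA, 0.24 for SMA+MW150 and 0.33 for SMA+Pifithrin-alpha). The transcript was singled out with earlier results of these data in view. Between SMA and WT the marker sums of motor neurons and microglia also lay apart, and their part in the transcript's difference was not tested.

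The gene as a whole showed no such pattern. Mrpl20 was at 334, 481 and 374 scaled TPM in WT, at 387, 336 and 336 in SMA, and at 313, 313 and 327 with MW150. With Pifithrin-α it was at 329, 388 and 518, and with SMN-C3 at 446, 506 and 441. The SMN-C3 libraries lay above all SMA libraries and the MW150 libraries below all SMA libraries, but the log2 differences of 0.40 (SE 0.21, adjusted p 0.77) and -0.15 (adjusted p 1.0) did not pass. SMA against WT gave -0.15 (adjusted p 0.75), and 0.10 with TPM as deposited.

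The 78 genes were abundant for these cells. TPM is a value per transcript length, so levels can be compared between genes: the median of the gene means was 97.4 scaled TPM, against 10.1 over all genes tested, and 67.9% of those genes lay below the lowest member. Together the members took between 0.699% and 1.21% of TPM in a library. Their means spanned 20.5-fold, from 23.1 (Mrps30) to 473 (Mrpl42). Both extremes belong to the large subunit, and both are proteins added in mitochondria; Mrps30, despite its symbol, sits in the large subunit, as does Mrps18a.

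By role, the medians were close. The 30 large-subunit genes with a bacterial counterpart had a median of 111 scaled TPM, from Mrpl1 (31.1) to Mrpl20 (389). The 21 large-subunit genes added in mitochondria had a median of 97.1. The 16 small-subunit genes with a bacterial counterpart had a median of 114, from Mrps2 (37.0) to Mrps18c (344), and the 10 added in mitochondria 81.2, from Mrps23 (33.8) to Mrps33 (265). Mrps36, now placed in the 2-oxoglutarate dehydrogenase complex and not in the ribosome, was at 242. Subunits of 1 complex thus differed in level far more than the medians of its parts.

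**Figure D2:**
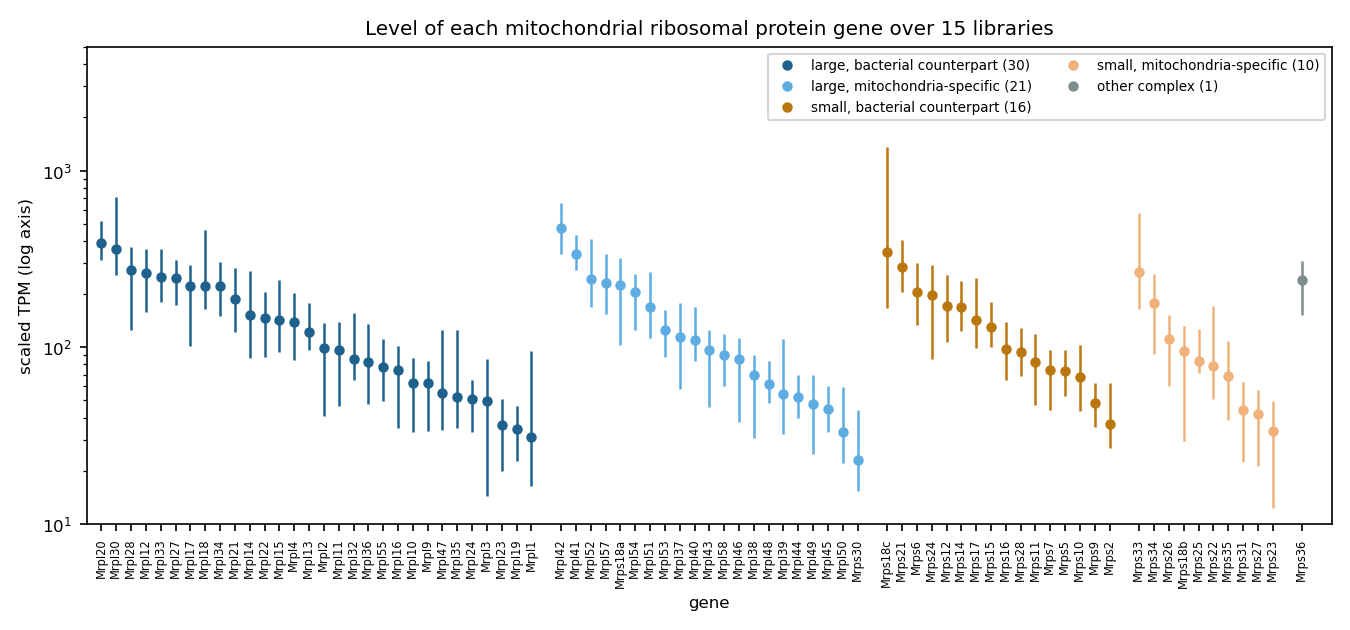
Mean scaled TPM (points, log axis) of each of the 78 genes over 15 libraries, with lines from the lowest to the highest library, by role. Levels run from 23.1 (Mrps30) to 473 (Mrpl42), both large-subunit genes added in mitochondria. Large-subunit genes with a bacterial counterpart run from 31.1 to 389. Small-subunit genes run from 37.0 to 344 and from 33.8 to 265, bacterial type first. The longest line is that of Mrps18c.

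The genes at the top were Mrpl42, Mrpl20, Mrpl30, Mrps18c and Mrpl41, and those at the bottom Mrpl50, Mrpl1 and Mrps30. Neighbours in that order overlapped: Mrpl41, a large-subunit protein added in mitochondria, ran from 273 to 433 scaled TPM over the libraries, and Mrpl20 from 313 to 518. Sequence shared with other genes may limit some values. Of the 31-base stretches of the main transcript, Mrpl53 shares 100% with Gm42688, which overlaps it on the same strand, and Mrpl23 shares 77.0% with its pseudogene Mrpl23-ps1. Mrps18b shares 55.6% with Gm16279 and Mrps34 55.6% with Mapk8ip3, each an overlapping gene on the other strand. Mrpl27 shares 54.0% with other genes in all, Mrpl48 46.8%, Mrpl22 43.2%, Mrps36 41.6%, Mrpl19 41.3% and Mrpl24 40.3%, and the abundant Mrps18c and Mrpl30 share 35.5% and 35.2%. How far shared sequence alters the levels of these genes was not tested.

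Replicates of these genes lay closer together than those of the median gene. The residual standard deviation within groups had a median of 0.30 on the log2 scale, against 0.45 over all genes and 0.37 over genes with a mean of at least 20 TPM. Mrps15 (0.11), Mrpl41 (0.19) and Mrps25 (0.20) were the tightest, and Mrps18c (0.84), Mrpl1 (0.77) and Mrps22 (0.52) the loosest.

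These 3 loose genes were all high in WT 1 and SMA+Pifithrin-alpha 3. Mrps18c, a small-subunit protein with a bacterial counterpart, was at 712 scaled TPM in WT 1, 1360 in SMA+Pifithrin-alpha 3, 409 in SMA+Pifithrin-alpha 2 and 467 in SMA+SMN-C3 1. In the other 11 libraries it ran from 166 to 268. Mrpl1, a large-subunit protein of the bacterial type, was at 85.4 in WT 1, 95.6 in SMA+Pifithrin-alpha 3 and 35.7 in SMA+SMN-C3 1. Mrps22, a small-subunit protein added in mitochondria, was at 157 in WT 1 and 172 in SMA+Pifithrin-alpha 3, and between 50.8 and 89.9 elsewhere. These are the libraries with the most mitochondrially encoded TPM, and the part of that share in the levels was not tested.

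Most members did the opposite in WT 1. It held the lowest of the 15 values for 41 of the 78 genes and the highest for 0, where over all genes the lowest value fell there for 29.2% and the highest for 19.8%. SMA+Pifithrin-alpha 3 held the highest value for 31 members and the lowest for 7 (19.4% and 13.4% of all genes), and SMA+SMN-C3 2 the highest for 26 (10.5%). The size factor of SMA+Pifithrin-alpha 3 was the lowest of all (0.63), which raises its scaled values. In deposited TPM the members took 0.850% of that library, the lowest share after WT 1 (0.699%). Whether the members stand high in it thus depends on the scaling. The median member level was 80.3 scaled TPM in WT 1, against 116 and 98.4 in WT 2 and WT 3. It was 114, 97.9 and 101 in SMA, and 85.4, 98.3 and 93.3 with MW150. It was 92.3, 90.4 and 111 with Pifithrin-α and 112, 128 and 113 with SMN-C3. The WT range overlapped with that of every other group.

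**Figure D3:**
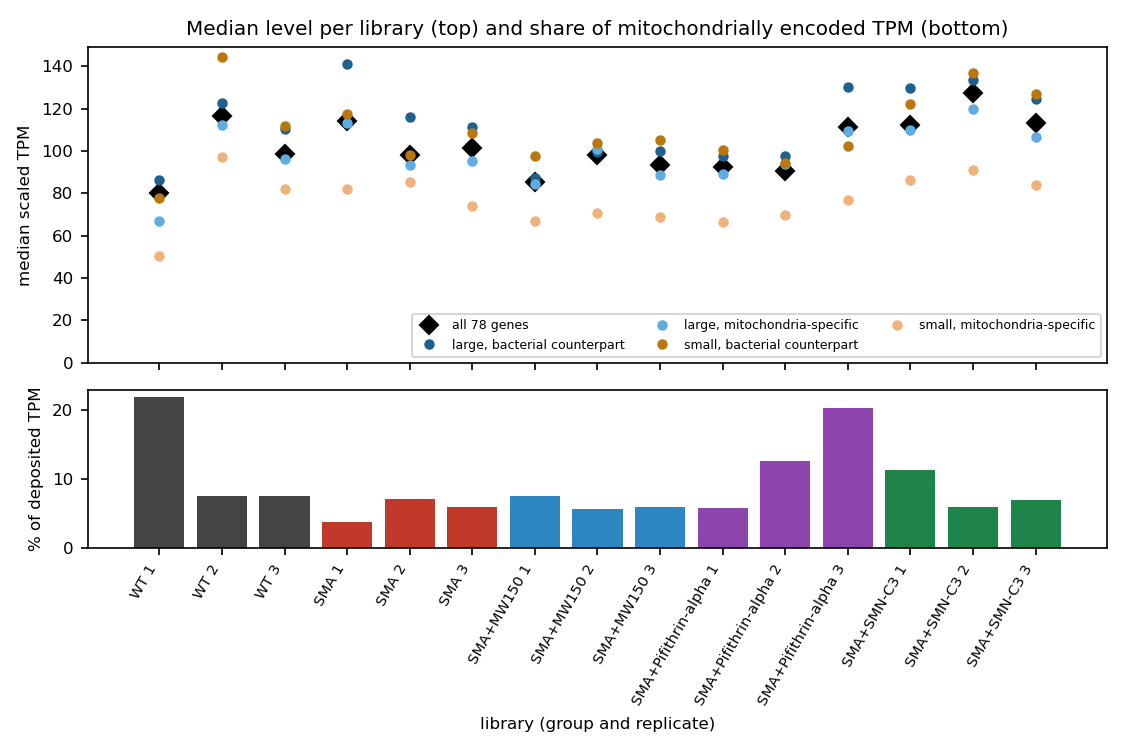
Median scaled TPM of all 78 genes and of each ribosomal role in every library (top), above the percent of deposited TPM from mitochondrially encoded genes (bottom; bars coloured by group). The 78-gene median runs from 80.3 in WT 1, the library with the highest mitochondrial share (21.9%), to 128 in SMA+SMN-C3 2.

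None of the 78 genes passed an adjusted p of 0.05 in any of the 7 comparisons, or in the test of the 5 groups at once (limma, over 15425 genes; lowest adjusted p 0.24 and 0.50). In the 5-group test 6 members had an unadjusted p under 0.05 (Mrps12, Mrpl14, Mrps15, Mrps11, Mrpl23 and Mrpl58); 9.23% of all genes did, and 0.182% were called.

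SMA against WT asks what loss of Smn changed. No member was called, against 0.298% of all genes. The median log2 difference was 0.11 (0.04 over all genes), with 53 members above 0 (52.8% of all genes were). At an unadjusted p under 0.05, 2 members were higher and 1 lower, against 7.2% and 5.83% of all genes. In 1 member every SMA library lay above every WT library (8.6% of all genes), and in 4 every one lay below (8.13%). The medians were 0.18 and 0.10 in the large subunit and 0.08 and 0.13 in the small subunit, bacterial type first. Without WT 1 the median over members was -0.055, with 27 above 0, and without WT 2 it was 0.29. It was 0.17 without WT 3 and 0.072 without SMA 1. Of the microglia markers 12 of 12 were above 0 (median 0.76), with C1qc, a complement component, called higher (limma, adjusted p 0.049). Also above 0 were 9 of 10 oligodendrocyte markers (median 0.82), 7 of 10 astrocyte markers (0.21) and 5 of 10 motor neuron markers (-0.17). The part of these markers in the members' differences was not tested.

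Mrps15, a small-subunit protein of the bacterial type that binds ribosomal RNA, had the lowest p. It was at 167, 180 and 144 scaled TPM in WT and at 105, 111 and 111 in SMA (log2 difference -0.58, SE 0.19, unadjusted p 0.0068, adjusted p 0.24). It was at 101, 112 and 114 with MW150, at 116, 120 and 140 with Pifithrin-α, and at 131, 146 and 147 with SMN-C3. All 12 libraries without mouse Smn but the 2 highest with SMN-C3 lay below the lowest WT library. Under all 17 alternatives of processing the SMA difference stayed negative, from -0.66 to -0.33, and under none was it called.

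Mrpl17 and Mrps18b, higher in SMA at an unadjusted p, differed mainly in WT 1. Mrpl17, at the rim of the large-subunit tunnel exit, was at 102, 256 and 171 scaled TPM in WT and at 293, 250 and 245 in SMA (0.67, SE 0.26, adjusted p 0.33). Mrps18b was at 29.6, 94.1 and 86.3 in WT and at 122, 94.7 and 95.9 in SMA (0.72, SE 0.33, adjusted p 0.37). Without WT 1 their differences were 0.33 and 0.20.

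SMA+MW150 against SMA asks what inhibition of p38α changed. No member was called, 0.00648% of all genes were, and no member reached an unadjusted p of 0.05 (1.82% of all genes). The median difference was -0.14 (-0.01 over all genes), with 11 members above 0 against 48.1% of all genes. For 14 members the MW150 libraries lay below all SMA libraries (5.29% of all genes), and for 1 above (5.39%). They also lay below for 15 of 83 nuclear respiratory chain genes and 14 of 84 cytosolic ribosomal protein genes, and above for 0. Over genes with a mean of at least 20 TPM, a minimum chosen after seeing the data, the median was -0.08, and over 84 cytosolic ribosomal protein genes -0.14. The members' median was nearer 0 under other scalings: -0.062 with TPM as deposited, -0.048 with quantile normalization and -0.050 with mitochondrially encoded genes removed, with 26, 27 and 26 members above 0. The median of all genes moved too. The members' median minus that of all genes was -0.13 in the scaled values and -0.12, -0.04 and -0.12 under these scalings. The members' median was -0.091 without SMA 1 and -0.082 without SMA+MW150 1. Microglia markers were below 0 for 11 of 12 (median -0.41), with sums that did not overlap, and motor neuron markers for 6 of 10 (median -0.067). Astrocyte markers were below 0 for 8 of 10 (median -0.13) and oligodendrocyte markers for 5 of 10 (0.037). The part of these markers was not tested.

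The MW150 differences with the lowest p were small. Mrpl13 was at 142, 147 and 114 scaled TPM in SMA and at 96.0, 107 and 103 with MW150 (-0.39, SE 0.23, adjusted p 1.0). Mrpl11, whose protein forms the base of the stalk that receives translation factors, was at 139, 110 and 91.0 in SMA and at 73.7, 90.3 and 88.3 with MW150 (-0.41, SE 0.27, adjusted p 1.0). For both the groups did not overlap, and without SMA 1 the Mrpl11 difference was -0.25.

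SMA+Pifithrin-alpha against SMA asks what inhibition of p53 changed. No member was called (0.00648% of all genes). The median difference was -0.04 (-0.03 over all genes), with 34 members above 0 (48.1% of all genes). At an unadjusted p under 0.05, 6 members were lower and 1 higher (4.87% and 6.3% of all genes). The Pifithrin-α libraries lay below all SMA libraries for 19 members (9.82% of all genes) and above for 2 (6.68%), Mrps15 and Mrpl1. Without SMA+Pifithrin-alpha 3 the members' median was -0.19. Other abundant sets also held genes with all Pifithrin-α libraries below all SMA libraries. These were 38 of 84 cytosolic ribosomal protein genes (median -0.26) and 26 of 83 nuclear respiratory chain genes (median -0.14). In both sets 0 genes had them all above. Glial markers were lower in the same comparison: oligodendrocyte markers were below 0 for 10 of 10 (median -1.24), microglia markers for 10 of 12 (-1.11) and astrocyte markers for 8 of 10 (-0.50). Motor neuron markers were below 0 for 5 of 10 (-0.12). None of these markers was called, and their part in the result was not tested.

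Lowest in p was Mrpl23, near the tunnel exit of the large subunit, at 43.3, 50.7 and 40.5 scaled TPM in SMA and at 30.6, 23.8 and 19.9 with Pifithrin-α (-0.85, SE 0.26, adjusted p 0.44). Its pseudogene Mrpl23-ps1, which shares most of its sequence, was at 117, 117 and 104 and at 62.2, 82.1 and 59.1 in the same libraries, and for both every Pifithrin-α library lay below every SMA library. Mrps35, a small-subunit protein added in mitochondria, was at 69.0, 83.9 and 76.0 in SMA and at 50.3, 48.1 and 38.7 with Pifithrin-α (-0.73, SE 0.30, adjusted p 0.44). Mrpl58, a peptidyl-tRNA hydrolase built into the large subunit, was at 83.4, 93.5 and 105 in SMA and at 60.6, 71.9 and 60.5 with Pifithrin-α (-0.54, SE 0.23, adjusted p 0.44). For all 3 genes the groups did not overlap. Mrps18c gave 1.24 (adjusted p 0.44), with the value of 1360 in SMA+Pifithrin-alpha 3.

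SMA+SMN-C3 against SMA asks what raising SMN from the transgene changed. No member was called (0.0648% of all genes), but the members leaned one way. The median difference was 0.23 (-0.01 over all genes), and 69 of 78 members were above 0, against 49.1% of all genes. The SMN-C3 libraries lay above all SMA libraries for 27 members (10.2% of all genes) and below for 1 (8.3%), Mrpl51. The role medians were 0.21 and 0.21 in the large subunit and 0.31 and 0.22 in the small subunit.

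The size and sign of this median depended on how libraries were scaled. It was -0.033 with TPM as deposited (all genes -0.23), 0.054 with quantile normalization (all genes 0.01) and 0.0045 with mitochondrially encoded genes removed (all genes -0.20). Relative to the median of all genes, the members stood higher by 0.24 in the scaled values and by 0.20, 0.04 and 0.20 under these alternatives. Genes with a mean of at least 20 TPM had a median of 0.15 in the scaled values. Other abundant housekeeping sets leaned the same way: 78 of 83 nuclear respiratory chain genes were above 0 (median 0.29), as were 59 of 84 cytosolic ribosomal protein genes (0.15). Marker sums differed too: motor neuron markers summed to 15030 to 19207 scaled TPM with SMN-C3 and 8960 to 13578 in SMA, and microglia markers to 104 to 143 and 174 to 196. Oligodendrocyte markers were below 0 for 10 of 10 (median -0.60) and astrocyte markers for 8 of 10 (-0.58), with sums that overlapped. The part of these markers in the result was not tested.

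The 1 member with an unadjusted p under 0.05 was Mrps12 (6.74% of all genes passed), whose protein lies at the decoding centre of the small subunit. It was at 182, 155 and 169 scaled TPM in SMA and at 227, 257 and 244 with SMN-C3 (0.52, SE 0.23, adjusted p 0.70). It was at 106, 206 and 146 in WT, at 155, 175 and 159 with MW150, and at 136, 146 and 119 with Pifithrin-α, so the SMN-C3 libraries were the 3 highest of the 15. Mrps15 gave 0.37 (SE 0.19, adjusted p 0.74) and Mrpl21, at 205, 159 and 164 in SMA and 226, 281 and 224 with SMN-C3, gave 0.47 (SE 0.24, adjusted p 0.74). The number of members with an unadjusted p under 0.05 depended on the model. It was 15 with array weights, 15 with the mitochondrial share as a covariate and 12 in a fit of these 2 groups alone. It was 0 with TPM as deposited, with quantile normalization and with mitochondrially encoded genes removed. Under each of these, 0 members were called.

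**Figure D4:**
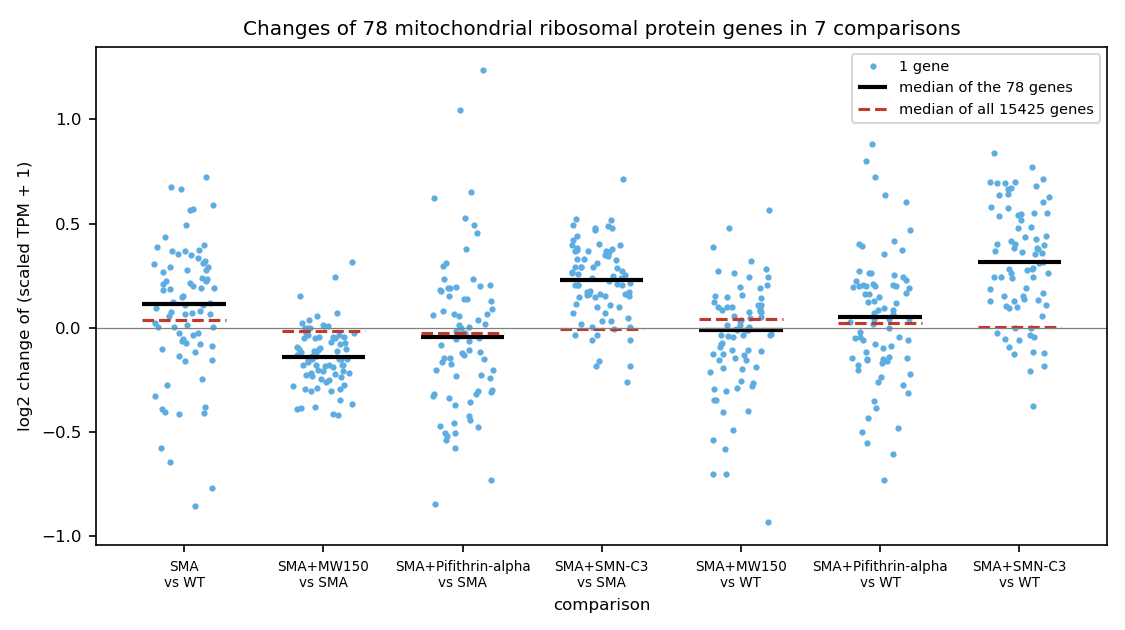
Log2 difference of (scaled TPM + 1) for each of the 78 genes (points) in 7 comparisons, with the median of the 78 (solid line) and of all 15425 genes tested (dashed line). With SMN-C3 the 78-gene median is 0.23 against SMA and 0.32 against WT. Genes with a mean of at least 20 TPM, not drawn, have medians of 0.15 and 0.16. The comparisons share their SMA or WT libraries.

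The treated groups were also set against WT, in comparisons that share the 3 WT libraries. No member was called with MW150 (0.123% of all genes), Pifithrin-α (0.175%) or SMN-C3 (0.0324%). The medians were -0.01, 0.05 and 0.32, against 0.04, 0.02 and 0.01 over all genes. Genes with a mean of at least 20 TPM had medians of -0.04, 0.04 and 0.16. Other sets leaned alike with SMN-C3: 62 of 83 nuclear respiratory chain genes were above 0 (median 0.21), as were 66 of 84 cytosolic ribosomal protein genes (0.21). Motor neuron markers were above 0 with SMN-C3 for 9 of 10 (median 0.36) and oligodendrocyte markers for 8 of 10 (0.26). Microglia markers were above 0 for 6 of 12 (0.12), astrocyte markers for 4 of 10 (-0.22) and vessel markers for 0 of 8 (-0.44). The part of these markers in the lean was not tested. With MW150 the members' median was -0.20 without WT 1 and 0.16 without WT 2. With Pifithrin-α it was -0.087 without WT 1 and 0.16 without WT 2. Leaving out the Pifithrin-α libraries 1, 2 and 3 in turn gave 0.11, 0.079 and -0.12. With SMN-C3 it was 0.16 without WT 1. Members above 0 numbered 36, 44 and 65 (53.2%, 52.3% and 50.6% of all genes). With SMN-C3, 15 members were higher at an unadjusted p under 0.05 and 0 lower (5.28% and 5.23% of all genes), and 14 lay above all WT libraries (6.85%) and 0 below (7.27%). The number with an unadjusted p under 0.05 was 2 without WT 1, 33 without WT 2, 4 without SMA+SMN-C3 2, 7 without SMA+SMN-C3 3 and 2 in a fit of these 2 groups alone. It was 2 with TPM as deposited, 7 with quantile normalization and 3 with mitochondrially encoded genes removed.

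Among these 15 were Mrps12 (0.71, SE 0.23, adjusted p 0.43), Mrpl10, a stalk protein (0.70, SE 0.25, adjusted p 0.45), and Mrpl14, which docks the assembly factor Malsu1 (0.68, SE 0.25, adjusted p 0.45). Mrpl10 was at 33.0, 62.8 and 60.6 scaled TPM in WT and at 76.9, 86.7 and 82.8 with SMN-C3. Mrpl14 was at 87.5, 188 and 137 in WT and at 190, 268 and 183 with SMN-C3. In all 3 genes WT 1 was the lowest WT library, and without it their differences were 0.48, 0.40 and 0.39.

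With MW150 the 1 member at an unadjusted p under 0.05 (7.46% of all genes) was Mrps15 (-0.58, SE 0.19, adjusted p 0.57), and 8 members lay below all WT libraries (7.59%) and 0 above (8.34%). Mrps22 gave -0.70 (SE 0.37, adjusted p 0.66), with WT at 157, 66.8 and 58.7 and MW150 at 52.8, 52.4 and 50.8 scaled TPM, and was -0.26 without WT 1. Mrpl32, a large-subunit protein that a mitochondrial protease matures, gave -0.49 (SE 0.26, adjusted p 0.66), with WT at 112, 94.7 and 84.6 and MW150 at 65.1, 73.4 and 67.2.

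With Pifithrin-α against WT, 4 members were higher and 4 lower at an unadjusted p under 0.05 (4.55% and 2.67% of all genes). The groups did not overlap for 3 higher members (4.69%) and 1 lower (3.33%), Mrps15. Mrps35 had WT at 39.9, 100 and 109 scaled TPM and a difference of -0.73 (SE 0.30, adjusted p 0.64). Without WT 1 it was -1.17 and was called (adjusted p 0.036), the 1 member called under any alternative. Mrps23 gave 0.80 (SE 0.33, adjusted p 0.64) and Mrpl3 0.88 (SE 0.37, adjusted p 0.65); their WT 1 values were 12.2 and 14.3, against 28.8 to 33.4 and 37.8 to 57.9 in the other WT libraries, and without WT 1 the differences were 0.39 and 0.34.

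**Figure D5:**
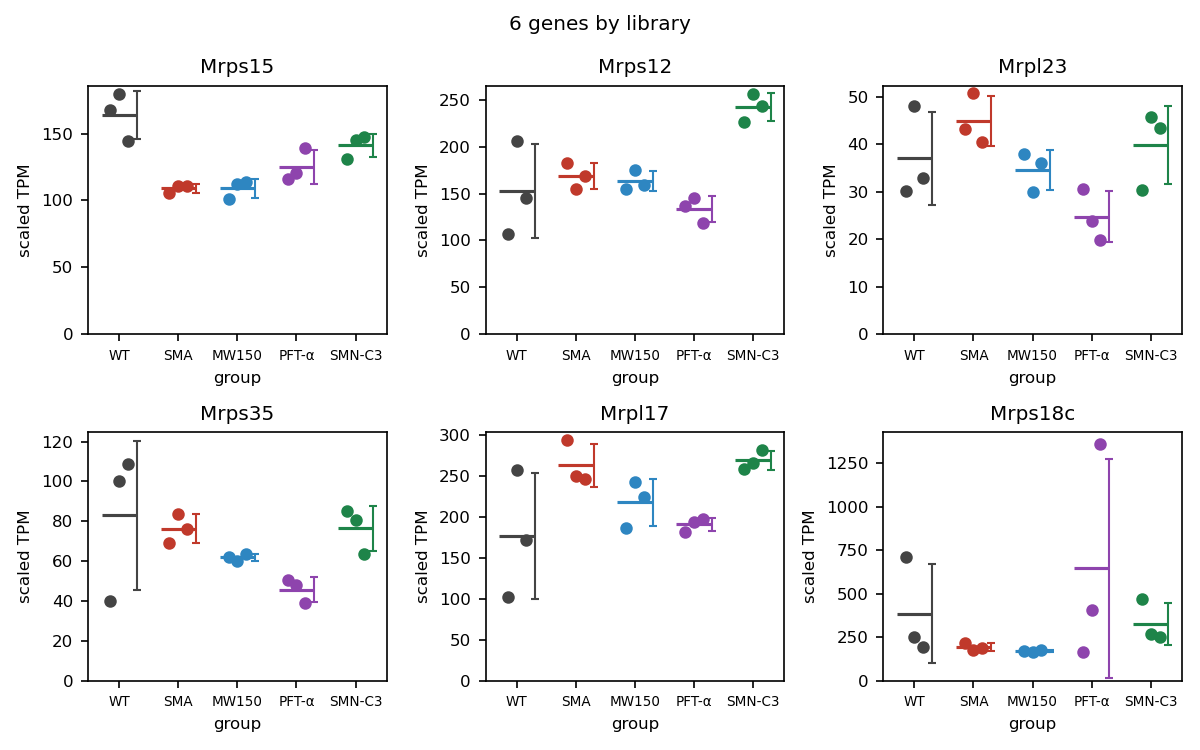
Scaled TPM of 6 of the named genes in every library (points) with group mean (line) and SD (bar, n = 3), by group (MW150, PFT-α and SMN-C3 are the treated SMA groups). Mrps15 sits between 144 and 180 in WT and between 105 and 111 in SMA, and Mrps18c reaches 1360 in 1 Pifithrin-α library.

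The partners of the mitochondrial ribosome gave the same count of calls. Of the 5 subunits with other symbols (Dap3, Chchd1, Aurkaip1, Ptcd3 and Gadd45gip1), 0 were called in any of the 7 comparisons; at an unadjusted p under 0.05, 0 of the 5 passed in SMA against WT. Likewise 0 of 15 translation factors, 0 of 20 tRNA synthetase and amidotransferase genes, 0 of 27 assembly factors tested of 28 listed, and 0 of 12 regulators of mitochondrial biogenesis were called in any comparison (limma). In SMA against WT, 2, 3, 3 and 0 of these had an unadjusted p under 0.05, where 7.2% of all genes were higher and 5.83% lower. Their medians in that comparison were -0.06, 0.12, 0.07 and 0.23, and 0.06 for the 5 subunits.

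Guf1, a translation factor that moves the mitochondrial ribosome back by 1 step, came nearest to the threshold. It was at 84.9, 24.6 and 27.008 scaled TPM in WT and at 5.83, 19.2 and 9.12 in SMA (-1.82, SE 0.43, adjusted p 0.094). It was at 25.2, 20.9 and 21.4 with MW150, at 27.4, 26.3 and 30.1 with Pifithrin-α and at 5.88, 11.2 and 9.51 with SMN-C3. The SMA and SMN-C3 libraries all lay below the WT, MW150 and Pifithrin-α libraries. Mtif2, the initiation factor that brings the first tRNA, was at 63.3, 26.9 and 20.8 in WT and at 19.1, 20.3 and 9.62 in SMA (-1.04, SE 0.37, adjusted p 0.29). For both Guf1 and Mtif2, WT 1 was the highest WT library by far.

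In the other lists, Mpv17l2, which is bound to the large subunit during assembly, was at 10.8, 68.0 and 47.7 scaled TPM in WT and at 128, 74.9 and 80.9 in SMA (1.45, SE 0.46, adjusted p 0.23). Gatb, a subunit of the amidotransferase that makes glutaminyl-tRNA in mitochondria, was at 3.30, 6.74 and 8.47 in WT and at 13.0, 14.4 and 12.3 in SMA (1.06, SE 0.37, adjusted p 0.28). The SMA libraries lay above all WT libraries in both genes, and WT 1 was the lowest WT library. Polrmt, the mitochondrial RNA polymerase, gave 0.69 (adjusted p 0.42) and Esrra, a nuclear receptor of mitochondrial biogenesis, 0.65 (adjusted p 0.41).

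The positions of the members, which the rule did not use, were taken from the annotation. The members lie on 17 chromosomes. A protein-coding gene starts on the other strand within 1000 bases upstream for 18 of the 78 (23.1%), against 9.37% of 14287 protein-coding genes tested. Mrps12 and Sars2, the mitochondrial seryl-tRNA synthetase gene, start 172 bases apart, and Mrps18c and Helq 29 bases apart. For 13 members another gene overlaps on the same strand and for 36 on the other strand, where reads may be shared if the libraries do not mark strand. The share of all genes with such overlaps was not computed, so these counts are not a trait of the members.

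Promoters were searched for 3 motifs on both strands, from 250 bases before to 50 after the start (RefSeq, GRCm38.p6; 69 of the 78 genes matched). GCGCANGCG, from the site of NRF1, an activator of nuclear genes for mitochondria, was in 23.2% of the 69 and in 14.3% of 11045 other genes tested. CCGGAAG, the core of the GABPA site, was in 37.7% and 18.3%, and AAGATGGCG, from the YY1 site, in 11.6% and 3.21%. At least 1 of the 3 was in 42 members (60.9%) and in 31.3% of the others. CCGGAAG ends with the letters that begin AAGATGGCG, so a stretch can hold both. A match describes these letters and is not evidence of binding.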

How the data were processed

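RNA from 15 libraries of laser-captured motor neurons was sequenced as poly(A) selected, low-input libraries, per the labels' protocols. The authors deposited length-corrected transcript abundances (TPM) per gene and per transcript, with 1 column per library. The submitters' processing notes list kallisto 0.44.0, the builds GRCm38.p6 and mm10, and DESeq2, with no role for each; the annotation release is not given in the sources used here. Of the 118489 transcripts, 98.5% matched GENCODE M21, from which coordinates were taken. TPM holds no counts, so depth is unknown and no counting interval is given.

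TPM was scaled by median-of-ratios size factors, and the test took every gene that reached 1 TPM in 3 or more libraries. Using limma 3.58.1 (R 4.3.3), log2(scaled TPM + 1) of the 15 libraries was modelled at once, by group (trended, moderated variances, two-sided). Calls needed a Benjamini-Hochberg adjusted p below 0.05 across all genes in the comparison. The fit was tested on simulated data. Tables and figures used Python 3.11.15, pandas 2.3.3, scipy 1.17.1 and matplotlib 3.10.9. Alternatives changed the scaling, the pseudocount (0.1), the filter, the weights, the covariate, the block and the libraries.

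Named genes were Mrpl20, the 3 members with the lowest p in each comparison, those highest and lowest in level and in residual SD, and from each other list those called or else the 2 with the lowest p in SMA against WT; cell type markers are given as sums. The members and lists were chosen with earlier results of these data known. Replicate numbers are shared between groups in the labels, but nothing there says that they pair samples. Deviations of same-numbered libraries correlated between -0.32 and 0.27; in SMA+SMN-C3 against WT alone all 3 pairs were over 0.1 (0.27, 0.10 and 0.17), and blocking changed no call there.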

Additional observations from a re-analysis of the deposited data

How the results depend on the processing

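With 3 libraries a group and no counts, no member's difference passed the adjusted threshold in the fit described above. No member was called under any alternative, with the exception of Mrps35 in SMA+Pifithrin-alpha against WT without WT 1 (-1.17, adjusted p 0.036), so that leaving out 1 library gave 0 to 1 calls there. With TPM as deposited the median log2 difference of the members was 0.36 in SMA against WT, -0.30 in SMA+Pifithrin-alpha against SMA, -0.033 in SMA+SMN-C3 against SMA and 0.32 in SMA+MW150 against WT. Over all genes it was 0.24, -0.22, -0.23 and 0.31. With mitochondrially encoded genes removed the members' median was -0.19, 0.0045 and 0.22 in the last 3 of these (-0.13, -0.20 and 0.24 over all genes). Quantile normalization gave 0.054 in SMA+SMN-C3 against SMA (0.01 over all genes). Array weights gave -0.018 in SMA against WT, -0.15 in SMA+MW150 against WT and -0.083 in SMA+Pifithrin-alpha against WT. Members above 0 there numbered 34, 15 and 29, and the medians over all genes were -0.00085, 0.0027 and 0.031. Leaving out 1 library gave medians from -0.055 to 0.29 in SMA against WT, from -0.20 to 0.16 in SMA+MW150 against WT, from -0.12 to 0.16 in SMA+Pifithrin-alpha against WT, from 0.16 to 0.45 in SMA+SMN-C3 against WT, from -0.20 to -0.082 in SMA+MW150 against SMA and from -0.19 to 0.020 in SMA+Pifithrin-alpha against SMA. The Mrpl20 gene turned sign with TPM as deposited in SMA against WT (0.10), SMA+Pifithrin-alpha against SMA (-0.067) and SMA+MW150 against WT (0.028). In SMA+Pifithrin-alpha against WT it did so with array weights (-0.12), and was -0.13 to 0.19 with 1 library left out.

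For the Mrpl20 transcript without exon 2, fits of only the groups compared gave 3.81 in SMA (adjusted p 0.13), 3.09 in SMA+MW150 (0.24) and 3.83 in SMA+Pifithrin-alpha (0.33) against WT. SMA+MW150 against WT was also not called without a filter (3.05, adjusted p 0.072), with the mitochondrial share as a covariate (3.18, 0.055) or without WT 1, WT 3, SMA+MW150 1 or SMA+MW150 3, and the range with 1 library left out was 2.68 to 3.46. SMA+SMN-C3 against WT ran from 2.54 to 3.17 with 1 library left out and was called without WT 2 (adjusted p 0.0497). SMA+Pifithrin-alpha against SMA, never called, was -0.13 with TPM as deposited, -0.0045 with quantile normalization, -0.020 with mitochondrially encoded genes removed, -0.17 with array weights, -0.039 with the covariate and -0.31 to 0.37 with 1 library left out; its share of the gene ran from -1.40 to 0.50 percentage points. The cause of these shifts was not tested.

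With the replicate number as a block, the median of the members stayed at 0.11, -0.14, -0.04 and 0.23 in the 4 comparisons in the order of the report, with 0 members called, and the transcript in SMA+MW150 against WT was at 3.05 with its call lost (adjusted p 0.10). The block changed no other call.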
